A study of Mus musculus with 8 samples.

Results

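The genes of oxidative phosphorylation were followed in mouse skin as 2 arms, one encoded in the nucleus and one on the mitochondrial chromosome. Members were chosen by gene symbol alone. The nuclear arm holds symbols that begin with Nduf (without the Ndufaf assembly factors), Cox4 to Cox8, Uqcr or Atp5, and the 4 Sdh genes, and the mitochondrial arm holds the mt-Nd, mt-Co, mt-Atp and mt-Cytb genes. Beyond the symbol, 2 or more libraries had to show a member at 10 or above. Of the 24612 rows of the table, 101 matched and all 101 passed that filter, 88 in the nuclear arm and 13 in the mitochondrial arm. Of the nuclear rows, 83 are annotated as protein coding and 5 as processed pseudogenes (Ndufa12-ps, Ndufb4c, Ndufs5-ps, Atp5l-ps1 and Atp5pb-ps), which the symbol rule takes in. Some members, such as Cox7a2l, are better known for assembly than as subunits. Cox4i2 is not analysed here.

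Total RNA came from skin homogenates of male C57 BL/6 J mice whose treatment began at 6 weeks of age and ran for 21 days. The 2 PBS libraries came from mice given 0.1 mL of phosphate buffered saline under the skin, and the 3 bleomycin libraries from mice given 0.1 units of bleomycin under the skin. Bleomycin is a DNA-damaging antibiotic that is used to produce skin fibrosis in mice. The 3 celastrol libraries came from mice injected daily into the peritoneum with celastrol, a plant triterpenoid, at 1 or 2 mg/kg. Which dose went to which mouse is not in the labels, and neither is any statement on bleomycin in the celastrol mice. The labels also do not say that each library is a separate mouse, so the p-values measure the spread between these samples only. The stated question was how gene expression compares in skin under the 3 treatments. Libraries keep their label numbers here, and values are given in the order PBS 2 and 3, bleomycin 2, 3 and 4, and celastrol 2, 3 and 5.

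Oxidative phosphorylation is the last stage of aerobic energy production. Complexes I and II pass electrons from NADH and succinate to ubiquinone, complex III passes them on to cytochrome c and complex IV to oxygen, while complexes I, III and IV pump protons and complex V, the ATP synthase, uses the proton gradient to make ATP. The mitochondrial chromosome encodes core subunits of complexes I, III, IV and V as parts of long precursor RNAs, whereas complex II and all other subunits are transcribed in the nucleus, where the factors NRF1 and GABP, a member of the ETS family, are known to act on many of their promoters. Skeletal muscle is far richer in mitochondria than epidermis or dermis, and skin samples can carry a layer of it.

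Values are gene counts divided by a scaling factor per library, on a linear scale, and a change is a difference of log2(value + 1) between groups, with its standard error. The reads behind each library, estimated from the value of a single read, ranged from 14900000 in Celastrol 3 to 37000000 in Celastrol 5. The 3 genes given as markers of the set were present in every library: mt-Cytb at 28963 or more, Cox6c at 2563 or more and Uqcrb at 1699 or more. Epidermal markers were present in every library (12 of 12 genes of the list, 1.18% to 2.40% of the summed values), and so were the 12 dermal fibroblast genes, at 1.85% to 3.70% in PBS libraries and 0.18% to 0.57% in the others. In homogenised skin, fewer cells of a type and less RNA per cell cannot be told apart.

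Promoters of the nuclear arm were searched on both strands for a form of the NRF1 motif and for the ETS letters CCGGAAG or CTTCCGG. The NRF1 form has GCGC at both ends, with an A and then any base at 1 position between them. The windows are the RefSeq promoters of GRCm38.p6, 250 bases before to 50 after a gene's start, and 68 of the 88 nuclear members had at least one, 73 promoters in all. The NRF1 motif stood in 18 of 73 member promoters (24.7%), against 1512 of all 32851 promoters (4.60%). By complex, 7 of 32 members matched held it in complex I, 2 of 3 in II, 1 of 5 in III, 1 of 13 in IV and 6 of 15 in V. The ETS letters stood in 17 of 73 (23.3%), against 2910 of 32851 (8.86%). A match describes the letters and is not a measured site. Shown are 60-base windows from genes of complexes I, II, IV and V, all on the minus strand and upstream of the start, with the NRF1 motif in capitals and were chosen because they hold it. They lie at chr16:37654525-37654584 (Ndufb4), chr13:74350304-74350363 (Sdha), chr5:115349086-115349145 (Cox6a1) and chr11:115420026-115420085 (Atp5h).
Ndufb4: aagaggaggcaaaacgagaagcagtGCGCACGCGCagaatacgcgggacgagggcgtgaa
Sdha: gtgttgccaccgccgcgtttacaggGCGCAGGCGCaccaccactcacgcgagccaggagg
Cox6a1: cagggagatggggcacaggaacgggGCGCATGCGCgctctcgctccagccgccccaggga
Atp5h: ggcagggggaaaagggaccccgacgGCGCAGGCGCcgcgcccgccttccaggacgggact

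Several members have a near-identical copy elsewhere in the genome that has its own row in the table, so that a read of one row can fit the other as well. The 6 neighbouring predicted genes on chromosome 1 (Gm28437, Gm28438, Gm28439, Gm28661, Gm10925 and Gm29216), a nuclear copy of a stretch of the mitochondrial chromosome, match 6 of the 13 mitochondrial members at 99% identity or more. The copies of mt-Co3 (783 bases), mt-Co2 (681), mt-Atp6 (678) and mt-Nd4 (876) matched at 100% over their length. The copy of mt-Nd3 differed from it at 1 of 345 bases, T3C counted from the 5′ end of mt-Nd3. The first bases of both, on the plus strand of the mitochondrial chromosome at chrM:9459-9481 and on the minus strand at chr1:24613097-24613119, show how little separates a read of one from a read of the other, with the differing base in capitals.
mt-Nd3: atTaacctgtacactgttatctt
Gm28438: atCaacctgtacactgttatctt

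Levels per kilobase of exon put the arms far apart. The 13 mitochondrial members had a median of 36140 per kilobase, from 2682 for mt-Nd3 to 130739 for mt-Co1, and the 82 nuclear members with a known exon length had a median of 231, from 10.4 for Cox6b2 to 3303 for Uqcrb. As a share of each library's summed values, the nuclear arm took 0.284% and 0.237% in PBS, 0.327%, 0.298% and 0.298% in bleomycin and 0.335%, 0.309% and 0.428% in celastrol libraries. The lowest bleomycin and the lowest celastrol library lay above both PBS libraries, while bleomycin and celastrol libraries overlapped. The mitochondrial arm took 1.59% and 2.41%, then 1.79%, 2.34% and 2.66%, then 2.34%, 2.95% and 3.78%. All 3 groups overlapped in that share, and PBS 2 and Bleomycin 2 stood lowest.

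**Figure D1:**
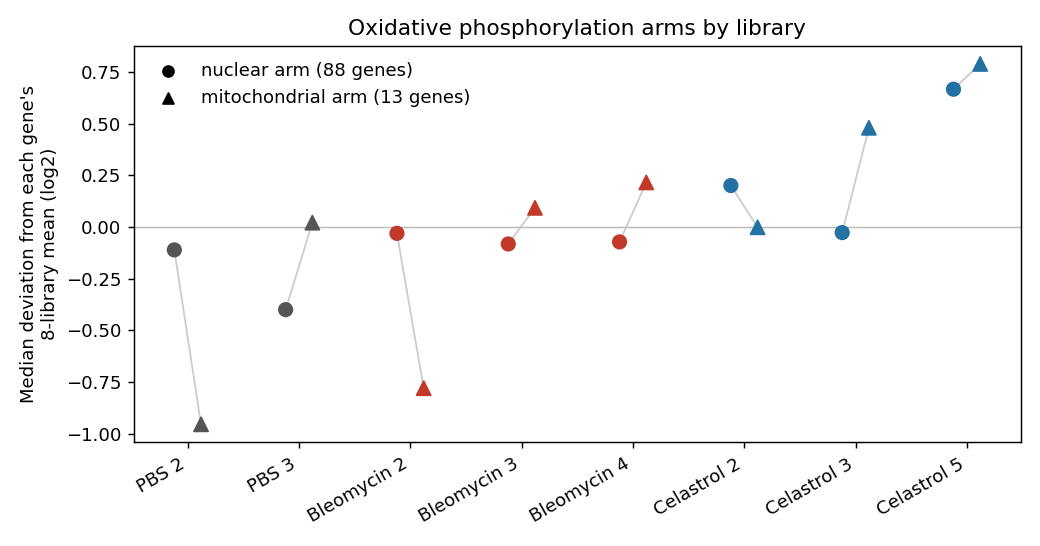
Median deviation of the members of each arm from each gene's own 8-library mean (vertical axis, log2 of value + 1) in each library (horizontal axis), circles for the nuclear and triangles for the mitochondrial arm, with grey PBS, red bleomycin and blue celastrol libraries. Both arms were highest in Celastrol 5 (0.67 and 0.79), the mitochondrial arm was lowest in PBS 2 (-0.95) and Bleomycin 2 (-0.78), and the nuclear arm was lowest in PBS 3 (-0.40).

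The 13 mitochondrially encoded genes were higher in celastrol than in PBS libraries by a median of 0.79 on the log2 scale, with none past the threshold. mt-Cytb, the cytochrome b of complex III (plus strand, chromosome M, 14145 to 15288, in mm10 as all gene spans here), stood at 28963 and 46575 in PBS, 31705, 42864 and 47102 in bleomycin and 50030, 59557 and 77713 in celastrol libraries. Every celastrol library lay above every PBS and bleomycin library, and PBS 2 and Bleomycin 2 lay below the rest. In the limma fit over all genes its change was 0.74 ± 0.27 (SE) against PBS (adjusted p = 0.288) and 0.62 ± 0.24 against bleomycin (adjusted p = 0.975). Bleomycin against PBS stood at 0.12 ± 0.27 (adjusted p = 1), and that sign turned without PBS 2 (-0.22).

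The complex I subunit mt-Nd4 had the widest range of linear values among the mt-Nd genes. Its values were 49701 and 115302 in PBS, 53471, 98574 and 112882 in bleomycin and 91486, 134401 and 176973 in celastrol libraries. PBS 3 was above Celastrol 2, so the groups overlapped, and PBS 2 and Bleomycin 2 were at about the same low level. With its identical copy Gm28439 added the order of the libraries was kept at the low end, at 52634 in PBS 2 and 61080 in Bleomycin 2 against 108951 or more elsewhere. Other subunits of complex I followed the same order at the low end: mt-Nd5 was 19932 in PBS 2 and 23418 in Bleomycin 2 and between 46623 and 72988 elsewhere. mt-Nd6, which is the only member on the opposite strand of the mitochondrial chromosome, was 7146 in PBS 2, 10623 in Bleomycin 2 and between 16588 and 30978 elsewhere. mt-Nd1 and mt-Nd2 were at 13984 and 16918 in PBS 2 and 14840 and 19037 in Bleomycin 2, against 24867 and 34163 or more elsewhere. mt-Nd4l was 4893 and 8626 in PBS, 5977, 8274 and 8573 in bleomycin and 9267, 10296 and 14520 in celastrol libraries, with celastrol above both other groups. It gave the smallest adjusted p of the arm, at 0.78 ± 0.28 for celastrol against PBS (adjusted p = 0.273).

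Not all members shared the low values of PBS 2 and Bleomycin 2, and mt-Co1, mt-Co3 and mt-Nd3 did not. mt-Co1, the catalytic subunit of complex IV, stood at 160730 and 167474 in PBS, 176819, 167860 and 187788 in bleomycin and 209156, 203703 and 342398 in celastrol libraries. Its 3 groups did not overlap, with bleomycin above PBS and celastrol above both, and its change for celastrol against PBS was 0.57 ± 0.27 (adjusted p = 0.436). mt-Co3, also of complex IV, was between 28232 and 36085 in 7 libraries and 54662 in Celastrol 5, and its change for celastrol against PBS, 0.37 ± 0.23, was the smallest of the arm (adjusted p = 0.576). mt-Nd3 was between 642 and 997 in 7 libraries and 1855 in Celastrol 5. Relative to each gene's 8-library mean these 3 lay between -0.29 and -0.00 in PBS 2 and between -0.15 and 0.18 in Bleomycin 2. The other 10 lay between -1.35 and -0.67 in PBS 2 and between -1.23 and -0.49 in Bleomycin 2. This split was made after the values were seen and was not tested. All 3 have a nuclear copy, and so do mt-Co2, mt-Atp6 and mt-Nd4 among the other 10. The part of the copies in the split was not tested.

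**Figure D2:**
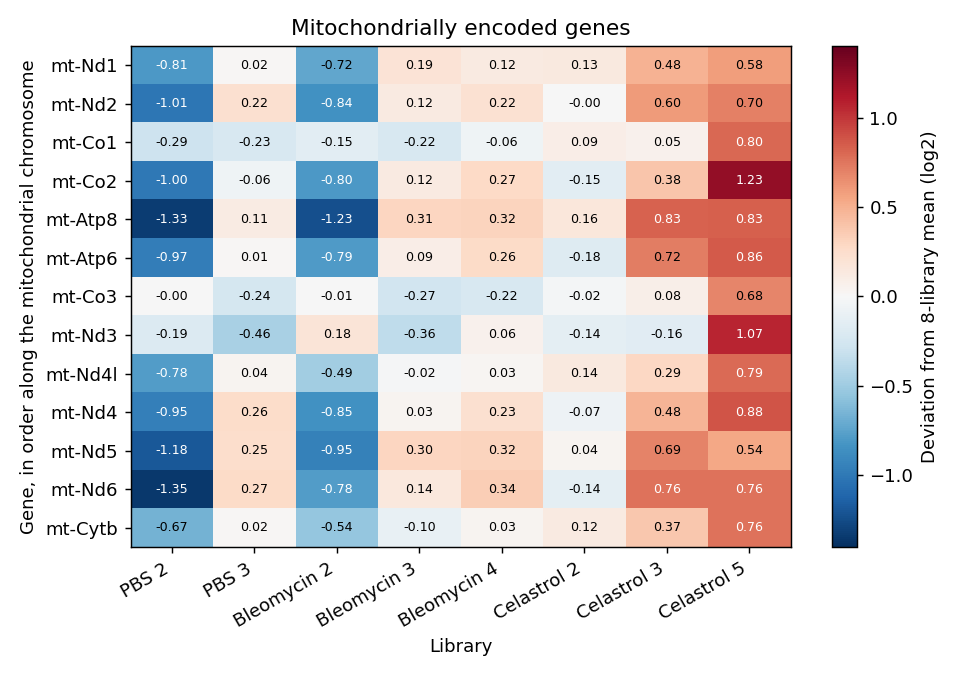
Deviation of each mitochondrially encoded gene (rows, in order along the chromosome) from its own 8-library mean, log2 of value + 1, in each library (columns), with the value in each cell. PBS 2 and Bleomycin 2 are low for 10 genes and not for mt-Co1, mt-Co3 and mt-Nd3, and Celastrol 5 is above the mean for all 13, from 0.54 to 1.23.

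mt-Atp8 and mt-Atp6, the complex V subunits whose reading frames overlap, had wide ranges. mt-Atp6 was 23806 in PBS 2 and 27049 in Bleomycin 2 and between 41141 and 84565 elsewhere. mt-Atp8 was 707 and 1926 in PBS, 759, 2198 and 2214 in bleomycin and 1989, 3161 and 3170 in celastrol libraries. Its change for celastrol against PBS, 1.22 ± 0.50, was the highest of the arm (adjusted p = 0.363), and every celastrol library lay above both PBS libraries, Celastrol 2 by little. For celastrol against bleomycin it was also the highest of the arm, 0.81 ± 0.45 (adjusted p = 0.975), and mt-Nd3 the lowest, 0.30 ± 0.32 (adjusted p = 0.975). For bleomycin against PBS the arm ran from -0.04 ± 0.23 for mt-Co3 to 0.44 ± 0.47 for mt-Nd6 (adjusted p = 1 for both).

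For reads shared with a copy, how the values were divided differed between pairs of rows. mt-Co3 and Gm28437 had nearly equal values in every library, 34026 and 34036 in PBS 2 and 54662 and 54672 in Celastrol 5. mt-Nd4 and Gm28439 were far from equal, at 49701 and 2934 in PBS 2 and 134401 and 44578 in Celastrol 3. The copy spans only part of mt-Nd4, so reads from the rest of the gene fit 1 row alone. mt-Atp6 and Gm10925, identical over 678 bases, were also unequal, at 23806 and 12175 in PBS 2 and 76963 and 14189 in Celastrol 3. What divided the values within these pairs was not tested. With copies added, mt-Nd3 was 1417 and 1624 in PBS, 1821, 1740 and 1702 in bleomycin and 2030, 1886 and 3834 in celastrol libraries, and its 3 groups then did not overlap. With all copies added, the median of the arm for celastrol against PBS was 0.83 in place of 0.79.

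**Figure D3:**
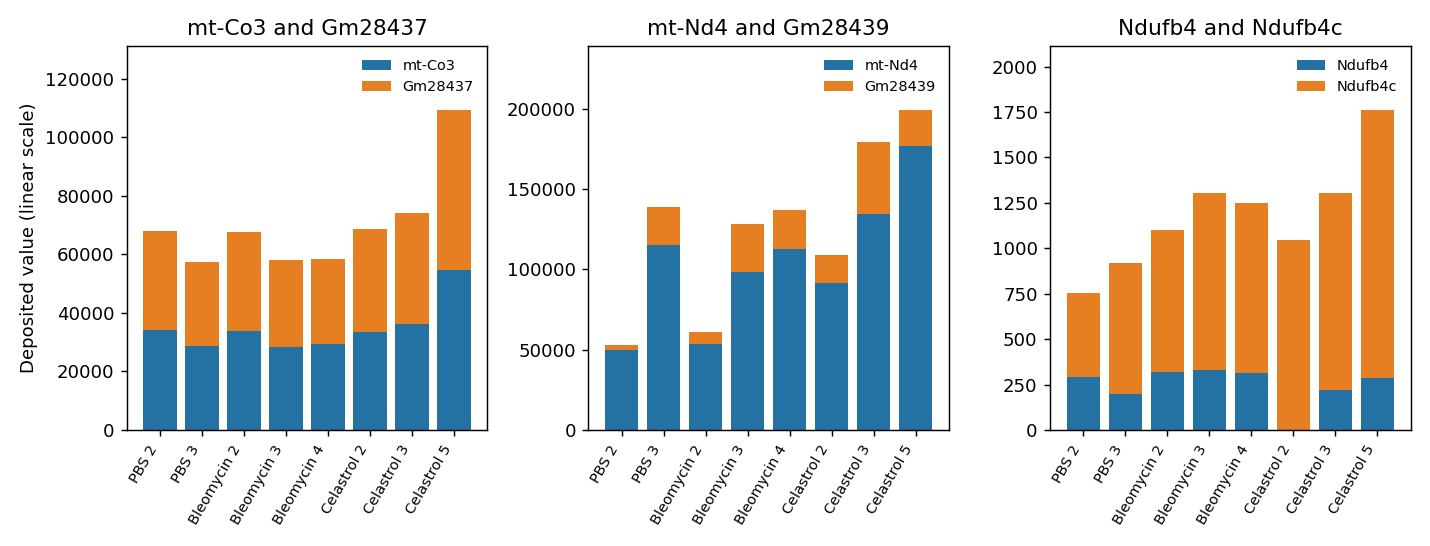
Deposited values (vertical axis, linear scale) of 3 members, blue, stacked with the value of an identical copy, orange, in each library. mt-Co3 and Gm28437 are near equal throughout, mt-Nd4 exceeds Gm28439 in every library, and Ndufb4 is near 0 in Celastrol 2, where Ndufb4c is 1046.

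In the nuclear arm, 41 members were counted under complex I, without Ndufa4, which is now known as a subunit of complex IV and was counted there. Ndufs1, an iron-sulfur subunit of the electron input arm and the member of complex I with the highest mean value (minus strand, chromosome 1, 63143596 to 63176833), stood at 2458 and 2158 in PBS, 2652, 2535 and 2365 in bleomycin and 3022, 3165 and 3290 in celastrol libraries. All celastrol libraries lay above all others, and bleomycin overlapped PBS. Its change was 0.46 ± 0.16 for celastrol against PBS (adjusted p = 0.261), 0.33 ± 0.14 against bleomycin (adjusted p = 0.975) and 0.13 ± 0.16 for bleomycin against PBS (adjusted p = 1). Ndufa9, an accessory subunit that was picked out after the values were seen, was 585 and 469 in PBS, 835, 533 and 688 in bleomycin and 1088, 860 and 1086 in celastrol libraries. It was 0.94 ± 0.25 higher against PBS (adjusted p = 0.132) and 0.58 ± 0.23 higher against bleomycin (adjusted p = 0.975), again with no overlap with either group.

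Ndufb4, an accessory membrane-arm subunit, was 290 and 201 in PBS, 319, 329 and 316 in bleomycin and 0.00027, 220 and 285 in celastrol libraries. The processed pseudogene Ndufb4c, identical to its transcript over 390 bases, was 465 and 720, then 782, 977 and 931, then 1046, 1082 and 1476. Celastrol 2 thus had almost no value for Ndufb4 and an ordinary one for Ndufb4c. Ndufb4 had the lowest change of the nuclear arm, -3.01 ± 1.67 for celastrol against bleomycin (adjusted p = 0.975) and -2.60 ± 1.87 against PBS (adjusted p = 0.641). Without Celastrol 2 the latter was 0.05. Ndufb4c, outside the rule for named genes, stood at 1.04 ± 0.26 for celastrol against PBS (adjusted p = 0.0947), 0.41 ± 0.23 against bleomycin (adjusted p = 0.975) and 0.63 ± 0.26 for bleomycin against PBS (adjusted p = 0.627), and its 3 groups did not overlap.

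Ndufs5, a complex I accessory subunit, was 146 and 275 in PBS, 184, 6.32 and 197 in bleomycin and 289, 173 and 240 in celastrol libraries. Bleomycin 3 alone was near 0, and the change of -1.65 ± 1.17 for bleomycin against PBS (adjusted p = 1) rests on it, since it was -0.08 without that library. The pseudogene row Ndufs5-ps was highest of the bleomycin libraries in the same one, at 655, with 363 and 433 in Bleomycin 2 and 4. It was 224 and 226 in PBS and 484, 537 and 850 in celastrol libraries, so both treated groups lay above PBS. Its change of 1.06 ± 0.34 for bleomycin against PBS gave the smallest adjusted p of the nuclear arm in that comparison (0.332), and for celastrol against PBS it was 1.42 ± 0.34 (adjusted p = 0.0803).

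Complex II, succinate dehydrogenase, is encoded wholly in the nucleus and also belongs to the citric acid cycle. Sdha, its flavoprotein (minus strand, chromosome 13, 74322254 to 74350280), was 3783 and 3265 in PBS, 4619, 4181 and 4273 in bleomycin and 4463, 4867 and 6885 in celastrol libraries. PBS lay below both other groups, which overlapped. Its change was 0.31 ± 0.20 for bleomycin against PBS (adjusted p = 1), 0.29 ± 0.18 for celastrol against bleomycin (adjusted p = 0.975) and 0.59 ± 0.20 for celastrol against PBS (adjusted p = 0.244). The iron-sulfur subunit Sdhb ranged from 464 in Bleomycin 3 to 1138 in Celastrol 5, and the membrane anchors Sdhc from 534 in PBS 3 to 1155 in Bleomycin 2 and Sdhd from 325 in PBS 3 to 981 in Celastrol 5. These 3 overlapped between PBS and celastrol, with changes of 0.48 ± 0.35, 0.48 ± 0.34 and 0.51 ± 0.38 (adjusted p = 0.641, 0.635 and 0.666).

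For celastrol against PBS, complex III gave the smallest adjusted p-value of the protein-coding members. Uqcrb, a ubiquinone-binding-region subunit (minus strand, chromosome 13, 66900617 to 66905378), was 1699 and 2081 in PBS, 2168, 3068 and 2858 in bleomycin and 2697, 4329 and 4246 in celastrol libraries. Both treated groups lay above PBS and overlapped each other. Its change was 0.50 ± 0.24 for bleomycin against PBS (adjusted p = 0.812), 0.46 ± 0.22 for celastrol against bleomycin (adjusted p = 0.975) and 0.97 ± 0.24 for celastrol against PBS (adjusted p = 0.103). With library weights in the fit the last had an adjusted p of 0.0435. Uqcrh, the hinge protein that contacts cytochrome c1, was picked out after its values were seen as the member with the smallest p. It was 546 and 558 in PBS, 608, 715 and 695 in bleomycin and 1192, 987 and 1055 in celastrol libraries.

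The groups of Uqcrh did not overlap and stood in the order PBS, bleomycin, celastrol. Celastrol was 0.96 ± 0.21 above PBS (adjusted p = 0.0554) and 0.68 ± 0.18 above bleomycin (adjusted p = 0.975), and bleomycin 0.28 ± 0.21 above PBS (adjusted p = 1). Not every small subunit of complex III had this order. Uqcr10 was between 67.3 and 266, with both ends in celastrol libraries, and its change for celastrol against PBS was -0.05 ± 0.58 (adjusted p = 0.985). Uqcr11 was between 82.1 and 140 in 7 libraries and 26.1 in Bleomycin 3, with a change of 0.32 ± 0.66 for celastrol against PBS (adjusted p = 0.895).

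Complex IV, cytochrome c oxidase, had 16 nuclear members, Ndufa4 included. Cox6c (minus strand, chromosome 15, 35925886 to 35938246), a small subunit with no tissue-specific partner, was 2563 and 2946 in PBS, 3024, 3010 and 3240 in bleomycin and 3778, 4150 and 5794 in celastrol libraries. The 3 groups did not overlap. Its change was 0.71 ± 0.20 for celastrol against PBS (adjusted p = 0.148), 0.54 ± 0.18 against bleomycin (adjusted p = 0.975) and 0.17 ± 0.20 for bleomycin against PBS (adjusted p = 1). Cox4i1, the ubiquitous form of subunit 4, was 1514 and 1400, then 1845, 1732 and 1610, then 1649, 1795 and 2568. PBS lay below both other groups, and celastrol against PBS stood at 0.43 ± 0.21 (adjusted p = 0.464). Cox7b ranged from 538 in Celastrol 3 to 1159 in Celastrol 5, so the extremes of that gene fell in 1 group (0.42 ± 0.31 for celastrol against PBS, adjusted p = 0.652).

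Complex IV also has subunits with a form for heart and skeletal muscle beside a ubiquitous form. The muscle form Cox7a1 was 50.1 and 27.6 in PBS, 51.6, 65.4 and 50.7 in bleomycin and 113, 94.5 and 109 in celastrol libraries, and its groups did not overlap. PBS 2 and Bleomycin 4 were apart by less than 1 read, which is worth 0.70 and 0.74 in them. Celastrol was 1.48 ± 0.59 above PBS (adjusted p = 0.343) and 0.91 ± 0.53 above bleomycin (adjusted p = 0.975), and bleomycin 0.57 ± 0.59 above PBS (adjusted p = 1). The ubiquitous Cox7a2 was 608 and 398, then 592, 673 and 597, then 698, 503 and 864, with overlap throughout (0.45 ± 0.29 for celastrol against PBS, adjusted p = 0.603). Cox7a1 made up 7.61% and 6.48% of the pair's summed value in PBS, 7.83% to 8.85% in bleomycin and 11.2% to 15.8% in celastrol libraries.

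The other 2 pairs were less even between libraries. The muscle form Cox8b was 15.3 and 8.83 in PBS, 21.3, 0 and 18.4 in bleomycin and 143, 23.6 and 67.6 in celastrol libraries. Every celastrol library lay above every other one, with changes of 3.04 ± 1.29 against bleomycin (adjusted p = 0.975) and 2.30 ± 1.44 against PBS (adjusted p = 0.585), and bleomycin against PBS stood at -0.74 ± 1.44 (adjusted p = 1). Without Bleomycin 3, where it was listed at 0, bleomycin against PBS was 0.72. The ubiquitous Cox8a was between 189 and 438 in 7 libraries and 41.0 in Celastrol 2, the library with the highest Cox8b (-0.68 ± 0.76 for celastrol against PBS, adjusted p = 0.789, and 0.25 without Celastrol 2). The muscle form Cox6a2 was between 104 and 159 in 7 libraries and 401 in Celastrol 5 (0.80 ± 0.54, adjusted p = 0.623), and Cox6a1 lay between 11.8 and 76.1, both in celastrol libraries (-0.60 ± 0.93, adjusted p = 0.853). Cox6a2 made up most of its pair in every library, 65.5% and 68.5% in PBS, 70.5% to 86.9% in bleomycin and 76.7% to 90.4% in celastrol. Bleomycin and celastrol overlapped there. For Cox8b the shares were 5.34% and 3.94%, then 0% to 6.90%, then 11.1% to 77.7%.

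Complex V had 19 nuclear members and the highest nuclear median for celastrol against PBS, 0.66. In 9 of 19 members every celastrol library lay above both PBS libraries, where 13.2% of all genes did. Atp5a1, the alpha subunit of the catalytic head and the member of complex V with the highest mean value, was 6852 and 5437 in PBS, 8036, 7648 and 6159 in bleomycin and 7588, 7847 and 10357 in celastrol libraries. Celastrol lay above PBS and overlapped bleomycin, and its change against PBS was 0.48 ± 0.20 (adjusted p = 0.364). Atp5l, the g subunit of the membrane part, was picked out after its values were seen. It was 1156 and 1198 in PBS, 1451, 1618 and 1798 in bleomycin and 1951, 2121 and 1742 in celastrol libraries.

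Atp5l was above PBS in every treated library, by 0.46 ± 0.18 for bleomycin (adjusted p = 0.596) and 0.71 ± 0.18 for celastrol (adjusted p = 0.105). It has an identical pseudogene copy, Gm10221, over 309 bases, whose own values ran from 521 in PBS 3 to 1940 in Celastrol 5. The delta subunit Atp5d did not follow this order. Atp5d ranged from 358 in Celastrol 3 to 805 in Celastrol 5, with a change of -0.08 ± 0.35 for celastrol against PBS (adjusted p = 0.952). The c subunit gene Atp5g3 likewise ranged from 275 in Celastrol 3 to 712 in Celastrol 5. The highest change of complex V came from the pseudogene row Atp5pb-ps, 2.33 ± 1.31 (adjusted p = 0.54), which was 23.0 in PBS 2 and 22.3 in Bleomycin 2 and between 239 and 813 in the other 6 libraries. Those 2 libraries are the ones with the lowest mitochondrial arm.

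**Figure D4:**
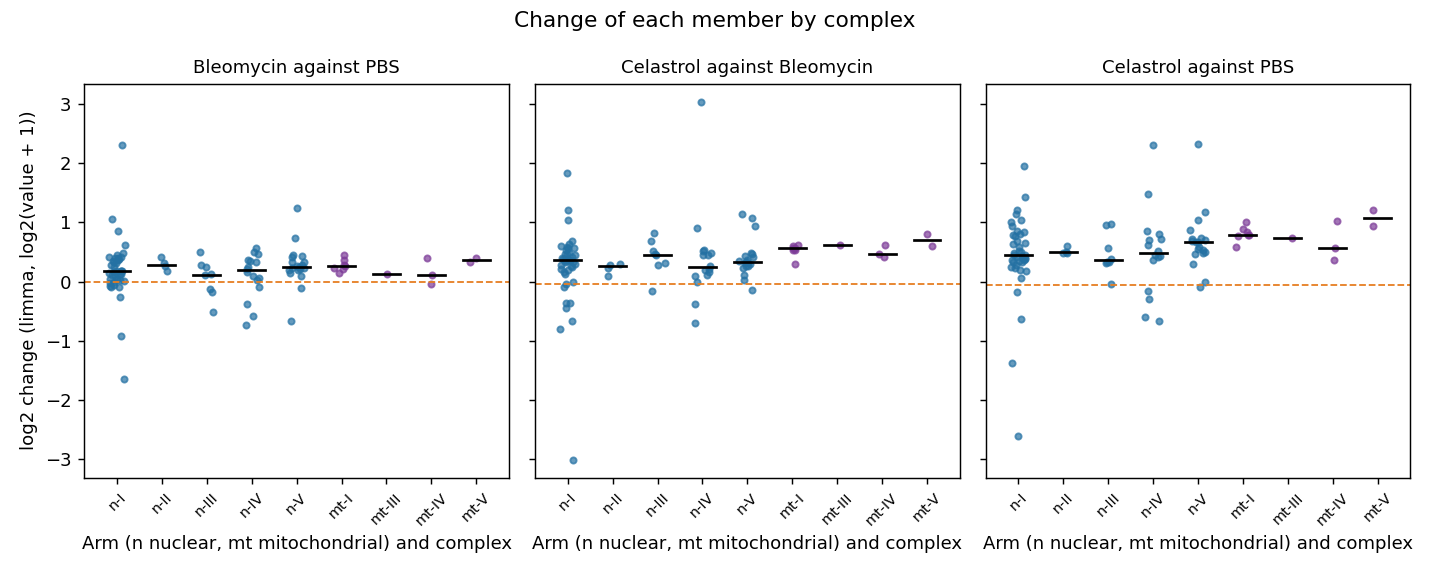
The log2 change of each member (points, vertical axis, limma on log2 of value + 1) by arm and complex (horizontal axis, n for nuclear and mt for mitochondrial) in the 3 comparisons, with black bars at the median of each complex and a dashed line at the median of all genes tested. Most complexes lie above that line, with medians for celastrol against PBS of 0.36 to 0.66 in the nuclear and 0.57 to 1.08 in the mitochondrial arm.

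Counted over the arm, the comparison of bleomycin with PBS called 0 of 88 nuclear and 0 of 13 mitochondrial members with limma at an adjusted p under 0.05, where 0.677% of all 23185 genes tested were called. At an unadjusted p under 0.05, 3 nuclear members were higher and none was lower, and no mitochondrial member passed in either direction, with 6.82% of all genes passing, 3.62% higher and 3.2% lower. Of the 83 protein-coding nuclear rows only 1 was higher, Atp5l, and the rest of those nuclear members were processed pseudogene rows. With 1 library left out, 1 (without Bleomycin 3 or 4) to 5 (without Bleomycin 2) nuclear and 0 to 2 (without PBS 3) mitochondrial members passed. DESeq2 and edgeR were not run, since the values are not counts, and no other setting called a member here. The median change was 0.20 in the nuclear arm, with 70 of 88 members above 0, and 0.26 in the mitochondrial arm, with 12 of 13, beside a median of -0.00 and 49.9% above 0 over all genes. In 19 nuclear members and 1 mitochondrial member every bleomycin library lay above both PBS libraries, and in none of the 101 below, where 12% of all genes lay above and 11.6% below. Of the protein-coding nuclear rows, 17 lay above in this way. Single PBS libraries decided these medians. Without PBS 3 the nuclear median was 0.06 and the mitochondrial one 0.76, and without PBS 2 they were 0.32 and -0.20.

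The comparison of celastrol with bleomycin, which uses no PBS library, also called 0 members of either arm, where 0% of all genes were called (0 of 23185). At an unadjusted p under 0.05, 9 nuclear (all protein coding) and 2 mitochondrial members were higher and none was lower, with 3.87% of all genes passing, 1.38% higher and 2.49% lower. With 1 library left out, 5 (without Bleomycin 4 or Celastrol 2) to 20 (without Celastrol 3) nuclear and 0 (without Celastrol 5) to 6 (without Celastrol 2) mitochondrial members passed. The limma fit without a mean-variance trend called 2 genes, no member among them. The median change was 0.33 in the nuclear arm, with 74 of 88 members above 0, and 0.57 in the mitochondrial arm, with 13 of 13, beside -0.04 and 46.3% over all genes. Every celastrol library lay above every bleomycin library in 17 nuclear (16 protein coding) and 3 mitochondrial members, where 4.13% of all genes did, and below in 2 nuclear members (Ndufb4 and Ndufb2), where 4.59% did. The nuclear median was 0.15 without Celastrol 5. The mitochondrial median was 0.30 without Bleomycin 2. Atp5mpl, a small membrane subunit of complex V picked out after its values were seen, stood at 0.95 ± 0.31 (adjusted p = 0.975), with 249, 193 and 267 in bleomycin and 427, 341 and 635 in celastrol libraries.

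The comparison of celastrol with PBS called 0 of 88 and 0 of 13 members at an adjusted p under 0.05 as well, where 1.37% of all genes were called. At an unadjusted p under 0.05, 20 nuclear (18 protein coding) and 6 mitochondrial members were higher and none was lower, with 12% of all genes passing, 6.13% higher and 5.91% lower. The 6 mitochondrial members became 0 without PBS 2, 0 without Celastrol 5, 0 with no mean-variance trend, 3 without Celastrol 3 and 10 without PBS 3 or without Celastrol 2, and the 20 nuclear members became 37 without Celastrol 3. The median change was 0.50 in the nuclear arm, with 77 of 88 above 0, and 0.79 in the mitochondrial arm, with 13 of 13, beside -0.07 and 45.6% over all genes. Every celastrol library lay above both PBS libraries in 32 nuclear (30 protein coding) and 6 mitochondrial members, where 13.2% of all genes did, and below in 1 nuclear member (Ndufb2), where 13.7% did. With library weights in the fit 2 nuclear members were called, Uqcrb and Ndufs5-ps (adjusted p = 0.0435 and 0.0397). The nuclear median was 0.32 without Celastrol 5, and the mitochondrial median 0.40 without PBS 2 and 1.38 without PBS 3. This comparison shares its PBS libraries with the first and its celastrol libraries with the second, so its counts are no separate evidence.

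The 2 arms did not keep a fixed relation within a group. The mitochondrial arm summed to 5.61 and 10.2 times the nuclear arm in PBS, 5.48, 7.83 and 8.93 times in bleomycin and 6.98, 9.56 and 8.84 times in celastrol libraries. The ratios of all 3 groups overlapped, and the widest gap lay between the 2 PBS libraries. The spread of the library medians within groups was 0.24 (pooled SD, log2) for the nuclear and 0.53 for the mitochondrial arm. Against that spread and with all libraries, the median changes of both arms for bleomycin against PBS were smaller than 1 SD. Those for celastrol against PBS were larger. Bleomycin against PBS was larger than 1 SD in the nuclear arm without PBS 2 (0.32) or without PBS 2 and Bleomycin 2 (0.28). In the mitochondrial arm it was larger without PBS 3 (0.76) or Bleomycin 2 (0.55). Celastrol against PBS was smaller in the mitochondrial arm without PBS 2 (0.40) or without PBS 2 and Bleomycin 2 (0.40). For celastrol against bleomycin both arms were larger with all libraries (0.33 and 0.57). They were smaller without Celastrol 5 (0.15 and 0.41), with equal library sums (0.21 and 0.45) or with equal sums outside the mitochondrial chromosome (0.22 and 0.46). The nuclear arm was also smaller there with the replicate number as a block (0.13). The mitochondrial arm was smaller there with library weights (0.47) and without Bleomycin 2 (0.30), Celastrol 3 (0.52), or PBS 2 and Bleomycin 2 together (0.30). The highest library was Celastrol 5 for 59 of 88 nuclear and 12 of 13 mitochondrial members, where 11.7% of all genes tested were highest in it. The lowest library was PBS 3 for 32 nuclear members and PBS 2 for 11 mitochondrial members, where 15.3% and 12.9% of all genes were lowest in them.

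Skeletal muscle genes moved with these libraries. All 23 genes of the sarcomere list were tested and none was at 0 in any library. Their summed values took 2.59% and 2.51% in PBS, 5.15%, 3.57% and 4.08% in bleomycin and 6.99%, 5.43% and 7.94% in celastrol libraries, of which the giant gene Ttn made up 70.9% to 77.1%. The 3 groups did not overlap. For celastrol against PBS 9 of 23 genes rose (median 1.38), where 0.824% of all genes did, among them the fast troponin gene Tnni2 by 1.63 ± 0.22 (adjusted p = 0.0084) and the muscle intermediate filament gene Des by 1.87 ± 0.28 (adjusted p = 0.0127). For bleomycin against PBS 1 of 23 rose, the fast myosin Myh1, by 1.31 ± 0.25 (adjusted p = 0.0499, list median 0.66), and for celastrol against bleomycin none did (median 0.81). The 9 calls became 0 without Celastrol 5, 1 without PBS 3, 2 without PBS 2, 1 with the replicate block and 6 without Bleomycin 4 or Celastrol 2, with list medians of 1.06 to 1.52, and Myh1 for bleomycin was not called without either PBS library, any of the bleomycin libraries or Celastrol 5. Ordered by muscle share, the libraries fall nearly in the order of their nuclear arm, with Celastrol 5 highest and PBS 3 lowest in both. Bleomycin 2 had the highest muscle share of the bleomycin libraries and the lowest mitochondrial share of them. The part of muscle RNA in the changes of either arm was not tested.

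**Figure D5:**
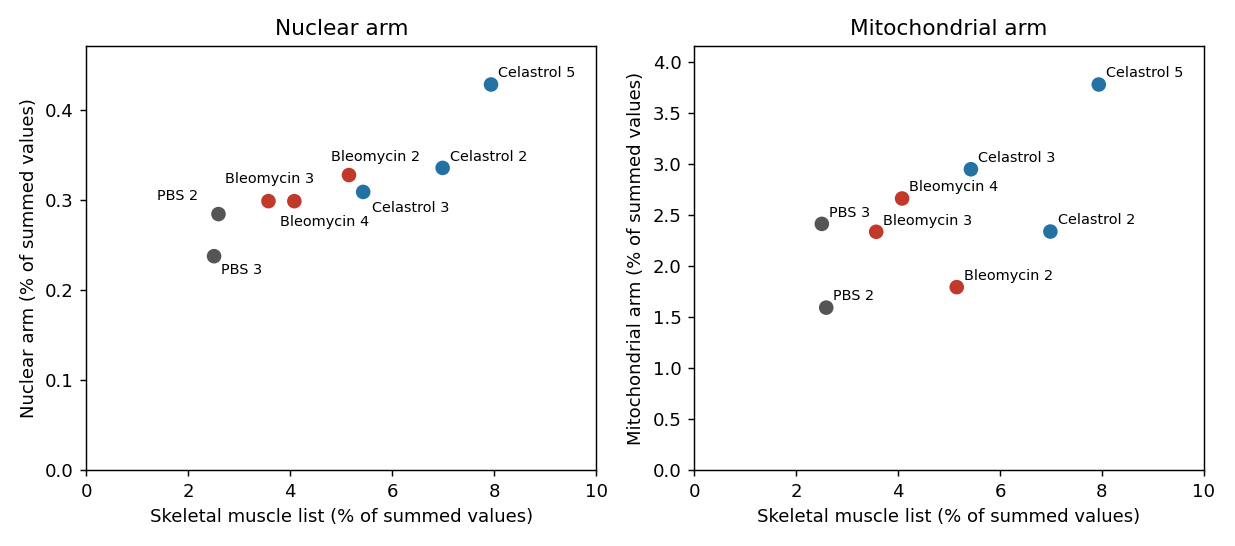
Share of the summed values taken by the nuclear arm (left) and the mitochondrial arm (right), vertical axes, against the share taken by the 23 skeletal muscle genes, horizontal axes, both in percent, with 1 point per library (grey PBS, red bleomycin, blue celastrol). Celastrol 5 has the highest share on every axis (7.94% muscle, 0.428% nuclear and 3.78% mitochondrial), and PBS 2 and Bleomycin 2 have the lowest mitochondrial shares (1.59% and 1.79%) at muscle shares of 2.59% and 5.15%.

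Dermal fibroblast genes were called lower against PBS in both treated groups, 9 of 12 for bleomycin and 10 of 12 for celastrol, with none higher, where 0.224% and 0.543% of all genes were. All 12 lay below 0 at an unadjusted p under 0.05 in both comparisons, where 3.2% and 5.91% of all genes did. Every bleomycin library lay below both PBS libraries in 11 of 12 and every celastrol library in 12 of 12, where 11.6% and 13.7% of all genes did. The calls at the adjusted p depended on single libraries. For bleomycin 0 were left without PBS 3, Bleomycin 3 or Bleomycin 4, 1 without PBS 2 and 4 without Celastrol 2, with list medians of -2.28 to -1.89 against -2.05. For celastrol 0 were left without PBS 3 or Celastrol 5 and 1 without PBS 2 or Celastrol 2, with medians of -2.41 to -1.76 against -2.02. Of the 7 genes of the brown adipocyte list, Ucp1 was not tested, and the other 6 summed to 0.017% to 0.019% in PBS and 0.007% to 0.011% in the other libraries, with none at 0. Of these 6, 5 lay below 0 and 1 above for bleomycin against PBS (median -1.13). For celastrol against PBS 3 lay below 0 and 3 above (median -0.84). In each comparison 2 of 6 were called lower, Cidea and Zic1, where 0.224% and 0.543% of all genes were. Cidea and Zic1 fell by 1.70 ± 0.28 and 2.06 ± 0.37 for bleomycin (adjusted p = 0.0274 and 0.0352). Their changes for celastrol against PBS were -1.73 ± 0.28 and -2.20 ± 0.37 (adjusted p = 0.0172 and 0.0196). Neither was called without PBS 2 or PBS 3 in either comparison, without Bleomycin 3 or 4 in the first, or without Celastrol 5 in the second. Of the adipocyte list 0 of 12 genes passed in any comparison (unadjusted p under 0.05: 1 lower for celastrol against bleomycin, none otherwise), at 0.09% to 0.31% of the summed values. Of the epidermal list 7 of 12 genes lay above 0 and 5 below for bleomycin against PBS (median 0.18). For celastrol against PBS 8 lay above and 4 below (median 0.26), with 1 lower at an unadjusted p under 0.05. In each of these comparisons 1 of 12 passed, where 0.453% and 0.824% of all genes were called higher. This was the barrier gene Flg, which rose by 1.81 ± 0.25 for bleomycin (adjusted p = 0.0144) and 2.40 ± 0.25 for celastrol (adjusted p = 0.00379). Its call for bleomycin was lost without PBS 3, Bleomycin 3 or Bleomycin 4. The immune list took 0.060% to 0.121% of the summed values, with 3 of 12 genes at 0 in some library. In both comparisons with PBS, 9 of 12 genes lay above 0 and 3 below (median 0.55). The neutrophil gene S100a8 rose by 7.06 ± 1.28 for bleomycin (adjusted p = 0.0366) and 7.996 ± 1.28 for celastrol (adjusted p = 0.0167). S100a9 rose by 7.67 ± 1.44 for celastrol (adjusted p = 0.0326). Both were near the floor in PBS, S100a8 at 0.70 and 0 and S100a9 at 5.56 and 0. S100a8 was 38.6, 1610 and 80.8 in bleomycin and 233, 351 and 445 in celastrol libraries. The call for bleomycin was lost without Bleomycin 3, Bleomycin 4 or Celastrol 3. For celastrol 1 call was left without Bleomycin 4, Celastrol 2 or Celastrol 3. None of these immune calls was left without PBS 2, PBS 3 or Celastrol 5. The part of these cell types in the changes of the 2 arms was not tested either.

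The rest of the pathway was read from lists of genes with neighbouring functions, whose counts for celastrol against PBS stand beside 1.37% of all genes called and 6.13% higher at an unadjusted p under 0.05. For celastrol against PBS the assembly factors had a median of 0.16 with 0 of 48 genes past the threshold (3 higher and 0 lower at an unadjusted p under 0.05). The electron carriers and ubiquinone synthesis genes had a median of 0.22 (0 of 16, and 0 at the unadjusted p) and the regulators of mitochondrial DNA and biogenesis 0.21 (0 of 33, with 3 higher unadjusted). The citric acid cycle enzymes had a median of 0.42 (0 of 17, with 8 higher unadjusted), with Idh3a, a subunit of its NAD-dependent isocitrate dehydrogenase, at 0.76 ± 0.18 (adjusted p = 0.074). Idh3a was 1522 and 1534 in PBS, 2023, 1859 and 1936 in bleomycin and 2337, 2428 and 3040 in celastrol libraries, in 3 groups that did not overlap. The mitochondrial ribosome had a median of 0.30 (0 of 79, with 8 higher unadjusted) and the carriers and porins 0.52 (0 of 8, with 4 higher unadjusted).

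Glycolysis, the cytosolic route that also makes ATP, had a median of 0.84 for celastrol against PBS, with 1 of 18 genes past the threshold. Ldha, the lactate dehydrogenase form found in skeletal muscle and many other tissues, rose by 1.08 ± 0.22 (adjusted p = 0.0434). It was 2721 and 2054 in PBS, 3540, 3606 and 3178 in bleomycin and 5167, 3868 and 6260 in celastrol libraries, with no overlap between the groups, and was not called without PBS 2, PBS 3, Bleomycin 3, Bleomycin 4, Celastrol 2 or Celastrol 5. The cytosolic ribosomal proteins, which serve neither route, had a median of 0.47 with 79 of 88 above 0, close to the nuclear arm's 0.50 with 77 of 88. Of them 1 rose, Rpl3l, the striated muscle form of Rpl3, by 1.77 ± 0.34 (adjusted p = 0.0367), which was called with Bleomycin 2 or Bleomycin 3 left out and not without any other library. For bleomycin against PBS no gene of these 8 lists passed (7 unadjusted, all higher). At the unadjusted p 3.62% of all genes were higher, and of the 8 lists only glycolysis was above that share (16.7%). Medians ran from 0.07 for the electron carriers to 0.34 for glycolysis. For celastrol against bleomycin none passed either (22 unadjusted, all higher), where 1.38% of all genes were higher unadjusted. The assembly factors and electron carriers stood at 0% and the other lists at 3.03% or more. Medians there ran from 0.04 for the regulators to 0.33 for the citric acid cycle.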

How the data were processed

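The deposited table holds 1 linear signal value per gene and library, gene counts that are not whole and that the authors scaled with DESeq2's poscounts factors, per the name of the deposited table. Partek 10.0.22, STAR 2.7.3a, DESeq2 and build mm10 stand in the submitters' processing notes, and the counter, the annotation and the use of strand are not given in the sources used here. Low values were whole multiples of a read's value for 68.4% to 73.2% of genes (tolerance 0.03 reads), so counts were not recovered and no count model was used. Depth was estimated from that step. All 8 libraries were fitted together with limma 3.58.1 (R 4.3.3, eBayes with trend) on log2(value + 1), which understates the change of low genes, over 23185 genes with at least 10 in at least 2 libraries (1427 left out), with Benjamini-Hochberg adjustment and a threshold of 0.05, and tested on simulated data. A fold change is a difference on that log2 scale.

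Of the members, 95 of 101 matched GENCODE M21 by symbol and position, which gave exon lengths and gene spans. Copies were searched with BLAST 2.17.0 among transcripts of the table's genes (at least 97% identity over 200 bases). Arms and lists are described by counts and medians, with no p. Named genes are the 3 markers, every mitochondrial member, the muscle and ubiquitous isoform pairs, the 4 Sdh genes and, per complex, the member with the highest mean and those with the highest and lowest change at a mean of at least 50. Members and lists were chosen with earlier results of these data known. Other pseudocounts, filters, scalings and weights, a replicate block and leaving out each library were tried.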

Additional observations from a re-analysis of the deposited data

How the results depend on the processing

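The groups hold 2 or 3 libraries each, and estimated depth differed within them. The number of genes called among all genes tested was 46 for bleomycin against PBS and 159 for celastrol against PBS with only the groups compared in the fit, 7, 2 and 19 with no mean-variance trend (in the order bleomycin against PBS, celastrol against bleomycin, celastrol against PBS), and 711 for bleomycin against PBS with library weights. It was 150 for celastrol against PBS without PBS 2 and Bleomycin 2, an alternative added after seeing the data. Leaving out 1 library at a time gave 16 to 229, 0 to 1 and 38 to 418. The cause was not tested. Members called stayed at 0 in both arms under every alternative except the library weights, with 2 nuclear members for celastrol against PBS. The median of the mitochondrial arm for that comparison ran from 0.40 to 1.38 when 1 library was left out, and was 0.40 without PBS 2 and Bleomycin 2.

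With the replicate number as a block, 17, 0 and 41 genes were called. The nuclear medians were then 0.21, 0.13 and 0.32 and the mitochondrial ones 0.13, 0.57 and 0.65. Number 4 occurs only in bleomycin and number 5 only in celastrol libraries, so the block took Bleomycin 4 and Celastrol 5 out of the comparisons. Its medians against PBS equal those without Bleomycin 4 (0.21 and 0.13) and without Celastrol 5 (0.32 and 0.65). These values therefore cannot show what pairing alone would change. The deviations of same-numbered libraries correlated at -0.00 to 0.20, highest for PBS 2 and Bleomycin 2, and those of different-numbered ones at -0.20 to 0.12. With 2 PBS libraries the deviations of PBS 2 and PBS 3 mirror each other, so these correlations cannot decide whether the numbers mark pairs. The labels' numbers are not taken as pairs here. Under the block mt-Nd3 was -0.0558 for celastrol against bleomycin.

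Rescaling to equal library sums moved the median of all genes for celastrol against bleomycin from -0.04 to -0.16, and the nuclear and mitochondrial medians to 0.21 and 0.45. For celastrol against PBS it gave 139 genes higher and 138 lower, in place of 191 and 126. Signs turned as follows. With library weights Cox8b was 0.26 for bleomycin against PBS, and Atp5d and Uqcr10 were 0.0125 and 0.25 for celastrol against PBS. Without PBS 2 and Bleomycin 2, mt-Cytb and mt-Nd6 were -0.0518 and -0.0247 for bleomycin against PBS, and Atp5d and Uqcr10 were 0.18 and 0.20 for celastrol against PBS. Leaving out 1 library gave, for bleomycin against PBS, -0.22 to 0.47 for mt-Cytb, -0.17 to 0.0777 for mt-Co3, -0.37 to 1.25 for mt-Nd6 and -1.52 to 0.72 for Cox8b. It gave -0.11 to 0.51 for mt-Nd3 in celastrol against bleomycin. For celastrol against PBS it gave -0.35 to 0.23 for Atp5d, -0.50 to 0.48 for Uqcr10, -1.44 to 0.25 for Cox8a, -1.15 to 0.15 for Cox6a1 and -4.03 to 0.0539 for Ndufb4.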

Other observations

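Other rows of the mitochondrial chromosome belong to no comparison above. mt-Rnr2, the large mitochondrial ribosomal RNA, was 52281 and 61243 in PBS, 43969, 83160 and 59224 in bleomycin and 66987, 75269 and 81877 in celastrol libraries. mt-Rnr1, the small one, was 10340 and 14341 in PBS, 5541, 30521 and 10042 in bleomycin and 9868, 12277 and 9453 in celastrol libraries. Both were highest in Bleomycin 3 and lowest in Bleomycin 2, and PBS 2 was the next lowest for mt-Rnr2 but not for mt-Rnr1. The mitochondrial tRNA rows were at 166 or below in every library.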
